A study of Mus musculus with 64 samples.

Results

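The 9 genes described here make, package, sense and break down dopamine and related amines: Th, Ddc and Slc18a2 on the synthesis and packaging side, the receptors Drd1, Drd2, Drd4 and Drd5, and the monoamine oxidases Maoa and Maob. They were found by symbol among the 55401 genes of the deposited count table, and each had 1 row. The libraries came from male C57BL/6J mice, 10 weeks old at injection, fed chow and housed in groups, which received 1 intraperitoneal injection of psilocybin (3 mg/kg) or of isotonic saline, the vehicle. The whole hypothalamus and the prefrontal cortex (PFC; frontal cortex in the labels) of each mouse were taken 3 h or 4 weeks later, so that region, treatment and time gave 8 groups of 8 libraries. Mice taken at 4 weeks were also older than those taken at 3 h, so time after injection and age cannot be told apart.

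Tyrosine hydroxylase (Th) turns tyrosine into L-DOPA and is the rate-limiting enzyme of dopamine synthesis. Aromatic L-amino acid decarboxylase (Ddc) turns L-DOPA into dopamine and 5-hydroxytryptophan into serotonin, and the vesicular monoamine transporter 2 (Slc18a2) loads dopamine, noradrenaline, serotonin and histamine into vesicles. Drd1 and Drd5 are the D1-class receptors, which raise cyclic AMP, and Drd2 and Drd4 belong to the D2 class, which lowers it. Maoa and Maob sit on the outer mitochondrial membrane and oxidize the amines: Maoa prefers serotonin and noradrenaline, Maob is abundant in astrocytes, and both degrade dopamine. The hypothalamus holds its own dopamine neurons, including those of the arcuate nucleus that restrain prolactin release. The PFC receives dopamine axons from the midbrain, whose cell bodies lie outside the PFC. Psilocin, the active metabolite of psilocybin, acts mainly at serotonin receptors.

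Libraries under 1000000 total counts were left out (1 hypothalamus vehicle 3 h library and 1 PFC psilocybin 4 week library, with 211111 and 200066 counts), and the other 62 held 8061033 to 70361839 counts. The regions matched their labels: hypothalamus markers (Avp, Oxt, Pomc, Agrp, Hcrt and Pmch) summed to 310 to 2681 CPM (counts scaled to a common library size) in the hypothalamus and 0.938 to 12.5 CPM in the PFC, and 6 PFC markers (among them Slc17a7, Tbr1 and Fezf2) summed to 1380 to 2021 CPM in the PFC and 64.3 to 169 CPM in the hypothalamus. Markers of striatal projection neurons, which hold no member of the set, stood over 1.5 times their region's median in 8 of 31 PFC libraries and 4 of 31 hypothalamus libraries, and results that rest on these are given below with and without them. RNA was extracted in 4 pools: A and B held the hypothalamus of cages 1 to 4 and of cages 5 to 8, and C and D the PFC of the same cages, so a pool cannot be told apart from its cages, nor the region from its pools. Genes were tested with edgeR's quasi-likelihood test and called at an adjusted p (Benjamini-Hochberg, over 18971 genes) under 0.05. The fit used 1 estimate of spread per gene for all 8 groups, so an SE in 1 region also reflects the spread in the other. In these bulk samples, fewer cells of a type and less RNA per cell cannot be told apart.

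The members lie on 7 chromosomes of GRCm38. Th spans 7:142892752-142931128 (minus strand), Ddc 11:11814101-11898144 (minus), Slc18a2 19:59260896-59296012 (plus), Drd1 13:54051183-54055705 (minus), Drd2 9:49340627-49408177 (plus), Drd4 7:141292006-141296464 (plus), Drd5 5:38319367-38322518 (plus), Maoa X:16619698-16687818 (plus) and Maob X:16709282-16817366 (minus). Maoa and Maob are neighbours on the X chromosome, and run toward each other. Ddc overlaps 1700042O10Rik, Slc18a2 overlaps Gm29261 and Drd5 overlaps Gm26560, each on the opposite strand, and the counting rule in the methods (a stranded kit, with pairs kept if both ends fell on one strand) does not say whether a read's strand had to match the gene's, so reads of these partners may not be told apart from those of the member.

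The promoters of the synthesis and packaging genes are shown because Th, Ddc and Slc18a2 rose and fell together among hypothalamus libraries (below). The RefSeq windows (GRCm38.p6, 250 bases before to 50 bases after an annotated start, 5′ to 3′ on the gene's strand) were searched on both strands for a cyclic AMP response element, TGACGTCA, and for the NR4A element, AAAGGTCA, which share the letters GTCA at their 3′ ends. Capitals mark the match, and the second Ddc window carries AAAGGTCA on the other strand, so that it reads TGACCTTT.
Th, 7:142899946-142900245, minus strand: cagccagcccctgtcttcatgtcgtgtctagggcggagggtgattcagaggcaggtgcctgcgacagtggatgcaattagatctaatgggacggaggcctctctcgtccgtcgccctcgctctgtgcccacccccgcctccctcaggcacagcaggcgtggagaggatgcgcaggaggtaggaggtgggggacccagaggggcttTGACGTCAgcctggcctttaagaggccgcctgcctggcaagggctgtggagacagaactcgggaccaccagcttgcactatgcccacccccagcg
Slc18a2, 19:59260628-59260927, plus strand: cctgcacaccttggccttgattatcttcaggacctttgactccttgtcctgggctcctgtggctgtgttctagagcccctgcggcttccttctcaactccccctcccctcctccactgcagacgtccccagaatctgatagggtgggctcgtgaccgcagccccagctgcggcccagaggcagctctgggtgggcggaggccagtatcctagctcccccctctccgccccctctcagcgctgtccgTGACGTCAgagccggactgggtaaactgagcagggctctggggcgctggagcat
Ddc, 11:11890359-11890658, minus strand: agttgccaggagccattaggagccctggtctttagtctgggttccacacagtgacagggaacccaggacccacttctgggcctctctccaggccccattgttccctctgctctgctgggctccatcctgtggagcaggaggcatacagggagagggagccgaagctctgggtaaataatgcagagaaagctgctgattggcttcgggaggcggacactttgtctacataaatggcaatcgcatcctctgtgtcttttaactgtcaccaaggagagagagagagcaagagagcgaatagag
Ddc, 11:11898095-11898394, minus strand: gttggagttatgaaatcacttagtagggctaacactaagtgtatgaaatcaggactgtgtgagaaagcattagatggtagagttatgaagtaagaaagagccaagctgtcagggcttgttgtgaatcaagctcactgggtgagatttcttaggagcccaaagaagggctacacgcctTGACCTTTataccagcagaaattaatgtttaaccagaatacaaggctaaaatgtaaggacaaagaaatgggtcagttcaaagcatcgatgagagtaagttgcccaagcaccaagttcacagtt
The match in Th begins 45 bases before the start and that in Slc18a2 begins 4 bases before it. The first Ddc window held neither motif. Of all 32851 mouse promoter windows, 588 (1.79%) held TGACGTCA and 495 (1.51%) held AAAGGTCA. Of the 9 members, 8 had at least 1 window (10 windows in all), and the windows of Drd1, Drd2, Drd4, Drd5 and Maoa held neither motif. Maob had no window. These are letter matches, not measured binding sites.

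The regions differed far more in these genes than the treatments did. Between hypothalamus and PFC, 7 of 8 tested members were called and all 7 were higher in the hypothalamus; 76.2% of all tested genes were called in that comparison, and 36.5% were called as higher in the hypothalamus. The median log2 difference of the 8 members was 1.58, against -0.019 over all tested genes. The synthesis and packaging genes differed most. Th was 22.0-fold higher in the hypothalamus (log2 difference 4.46, SE 0.21, adjusted p = 2.23e-26), Ddc 16.3-fold higher (4.03, SE 0.094, adjusted p = 3.26e-43) and Slc18a2 13.7-fold higher (3.78, SE 0.13, adjusted p = 3.54e-34). In the same mouse, each of the 3 was higher in the hypothalamus than in the PFC in 30 of 30 mice that had both libraries. The lowest of these ratios was 1.70 for Th, 8.74 for Ddc and 4.87 for Slc18a2.

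Among the receptors, Drd2 was 4.82-fold higher in the hypothalamus (log2 difference 2.27, SE 0.33, adjusted p = 2.66e-08) and Drd5 1.52-fold higher (0.60, SE 0.086, adjusted p = 7.32e-09). The Drd2 difference grew to 4.08 (SE 0.14) without the libraries high in striatum markers. Drd1 was not called (-0.48, SE 0.24, adjusted p = 0.0668, 95% interval -0.969 to 0.0041), though it was lower in the hypothalamus in 24 of 30 mice. Without the libraries high in striatum markers the Drd1 difference was -0.14 (adjusted p = 0.408). With the animal as a replicate block it was -0.39 (adjusted p = 0.0281; 75.2% of 18991 genes were called in that fit), and Drd1 was also called on leaving out any 1 of 9 libraries, at adjusted p-values from 0.0222 (without hypothalamus psilocybin 4 week replicate 8) to 0.0493. Drd4 fell below the filter on low counts over both regions together, because 6 libraries reached the required 0.547 CPM and 7 were needed. With each region filtered alone, Drd4 passed in the PFC and not in the hypothalamus. It had 0 to 37 reads a library in the PFC (median 7) and 0 to 14 in the hypothalamus (median 2). Tested with no filter, Drd4 was lower in the hypothalamus (-1.39, SE 0.31, adjusted p = 0.000103; 42.9% of 42159 genes were called), and lower there in 25 of 30 mice.

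Both oxidases were higher in the hypothalamus by similar factors, in 30 of 30 mice each. Maoa was 1.86-fold higher (log2 difference 0.89, SE 0.043, adjusted p = 1.73e-27) and Maob 1.84-fold higher (0.88, SE 0.051, adjusted p = 1.2e-23). Of the 9 genes these had the narrowest within-mouse ratios, from 1.41 to 2.89 for Maoa and from 1.22 to 3.16 for Maob.

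**Figure D1:**
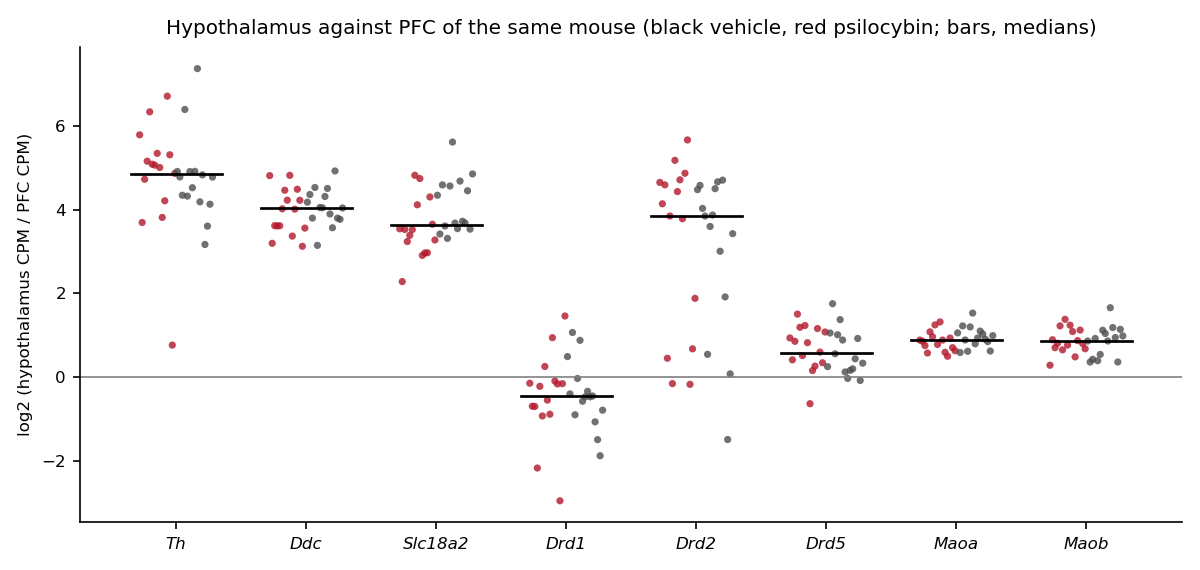
The log2 ratio of hypothalamus to PFC level (CPM) within each mouse, for the 8 genes that passed the filter; each point is 1 of 30 mice, bars mark medians, black is vehicle and red psilocybin. Every point lies above 0 for Th, Ddc, Slc18a2, Maoa and Maob, 27 of 30 for Drd2 and for Drd5, and 6 of 30 for Drd1.

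On a per-length scale (CPM per kb of exon), which allows genes to be compared, Th was the member with the highest median in the hypothalamus (27.4, range 11.7 to 44.8), with Maob next (26.8, range 18.0 to 38.7), and these neighbours did not differ beyond their spread. Maoa (18.3, range 16.0 to 20.7), Ddc (14.9, range 8.96 to 23.3) and Slc18a2 (13.6, range 7.48 to 20.5) followed, with overlapping ranges. The receptors lay lower, with Drd2 at 8.45 (range 5.60 to 12.9), Drd1 at 1.93 (range 1.27 to 11.4), Drd5 at 0.833 (range 0.613 to 1.12) and Drd4 at 0.033 (highest 0.153). The ranges of Drd1 and Drd5 did not overlap, nor did those of Drd5 and Drd4, whereas those of Drd2 and Drd1 did.

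In the PFC the oxidases led by the same measure, with Maob at a median of 15.3 CPM per kb (range 11.1 to 19.4) and Maoa at 9.95 (range 6.71 to 12.8). Drd1 came next at 2.70 (range 1.503 to 25.0) and was thus the member receptor with the highest median in the PFC. Slc18a2 (1.07, range 0.288 to 1.77), Ddc (0.930, range 0.540 to 1.53), Th (0.919, range 0.183 to 8.20), Drd5 (0.558, range 0.246 to 0.9754) and Drd2 (0.531, range 0.207 to 29.9) overlapped each other, and Drd4 was last at 0.102 (highest 0.341). Of the 8 members detected in every library, Drd2 had the widest span in the PFC.

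Psilocybin against vehicle answered whether the drug changed these genes 3 h or 4 weeks after the dose. None of the 8 tested members was called in any of the 4 comparisons by edgeR, and none by DESeq2 or by the voom test with sample weights (limma). The share of all tested genes called was 0.0105% in the PFC at 3 h (2 genes), and 0% in the PFC at 4 weeks, in the hypothalamus at 3 h and in the hypothalamus at 4 weeks. At an unadjusted p under 0.05 the counts over all tested genes were 1371, 456, 337 and 1823 in that order, and among the members 1, 0, 0 and 0. The voom test called 1232 genes (6.49%) in the PFC at 3 h. The median log2 difference of the members was 0.18, -0.081, 0.11 and -0.093 in the same order, and that of all tested genes -0.0074, -0.0067, -0.00081 and 0.0097.

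Slc18a2 in the PFC at 3 h had the smallest p of the members. It ranged from 1.504 to 7.96 CPM (median 4.15) in vehicle libraries and from 2.59 to 9.23 CPM (median 6.31) in psilocybin libraries. The groups overlapped, although 7 of 8 psilocybin libraries lay above the vehicle median. The log2 difference was 0.61 (SE 0.26, 95% interval 0.0947 to 1.13, unadjusted p = 0.0214, edgeR adjusted p = 0.647), with 0.88 in pool C and 0.32 in pool D, and at 4 weeks it was 0.22 (SE 0.27). In the hypothalamus it was 0.13 (SE 0.22) at 3 h and -0.20 (SE 0.21) at 4 weeks. The summed thalamus markers, with which Slc18a2 varied in the PFC (below), had medians of 122.8 CPM in vehicle and 147.3 CPM in psilocybin libraries at 3 h. Rora alone held 78.5 CPM of that sum's mean of 137 over PFC libraries. The part of these markers in the Slc18a2 values was not tested.

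Th and Ddc did not pass the test at either time. Th in the PFC had medians of 2.25 CPM (range 1.26 to 4.89) with vehicle and 2.24 CPM (range 0.585 to 2.57) with psilocybin at 3 h, and of 3.05 CPM (range 0.433 to 9.81) and 2.02 CPM (range 1.01 to 19.4) at 4 weeks. The spread within the 4 week groups was wider than the gap between them, and 1 psilocybin library supplied the value of 19.4. The log2 differences were -0.42 (SE 0.49) and 0.23 (SE 0.42), and the second was -0.98 without that library (psilocybin replicate 7). In the hypothalamus Th had medians of 61.4 CPM (range 43.7 to 105.8) and 67.5 CPM (range 31.4 to 104.6) at 3 h, and of 64.1 CPM (range 47.6 to 88.3) and 57.1 CPM (range 27.6 to 105.9) at 4 weeks, for vehicle and psilocybin. The 4 ranges overlapped over most of their length, and the differences were 0.11 (SE 0.35) and -0.13 (SE 0.33). Ddc ran from 2.41 to 6.81 CPM over all PFC libraries and from 40.0 to 103.8 CPM over all hypothalamus libraries, with psilocybin differences of 0.23 and -0.089 in the PFC and 0.12 and -0.11 in the hypothalamus at 3 h and 4 weeks.

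Drd2 had the widest intervals of the members in the PFC. Drd2 there ranged from 0.823 to 21.3 CPM (median 1.36) with vehicle and from 0.614 to 24.0 CPM (median 1.18) with psilocybin at 3 h, and from 0.836 to 76.3 CPM (median 2.00) and from 0.527 to 22.8 CPM (median 1.43) at 4 weeks. In all 4 groups the highest libraries were those high in striatum markers. The log2 differences of 1.13 (SE 0.73) at 3 h and -1.02 (SE 0.67) at 4 weeks turned sign on leaving out 1 library each, to -0.11 without psilocybin 3 h replicate 4 and to 0.18 without vehicle 4 week replicate 6. Without the 8 PFC libraries high in striatum markers the Drd2 differences were -0.39 (SE 0.30) and -1.32 (SE 0.35). The second had an unadjusted p of 0.000404 and an edgeR adjusted p of 0.622, in a selection of libraries made after the data were seen. The vehicle libraries left ran from 0.836 to 5.43 CPM and the psilocybin libraries from 0.527 to 1.43 CPM, and they overlapped. The difference between the PFC effects at 3 h and 4 weeks was 2.15 for Drd2 (SE 0.99, unadjusted p = 0.0352, adjusted p = 1).

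Drd1 in the PFC differed by 0.32 (SE 0.48) at 3 h and -0.53 (SE 0.49) at 4 weeks. The first ran from 0.025 (without psilocybin 3 h replicate 4) to 0.49 (without vehicle 3 h replicate 6) on leaving out single libraries, and the second was 0.083 without vehicle 4 week replicate 6. In the hypothalamus Drd1 had medians of 14.9 CPM (range 4.88 to 27.2) with vehicle and 6.76 CPM (range 5.57 to 17.1) with psilocybin at 3 h (-0.65, SE 0.50), and of 6.88 CPM (range 5.14 to 32.3) and 6.92 CPM (range 4.62 to 41.5) at 4 weeks (0.41, SE 0.48). The ranges overlapped at both times. The striatum markers moved the same way there, with medians of 460.5 CPM in vehicle and 335.2 CPM in psilocybin libraries at 3 h, and 332.8 and 401.5 CPM at 4 weeks, and their part in the Drd1 values was not tested. Without the libraries high in striatum markers the hypothalamus differences of Drd1 were -0.42 (SE 0.27) and 0.044 (SE 0.29). Drd2 in the hypothalamus was far steadier, with all 31 libraries between 14.3 and 32.8 CPM. Its differences there were -0.080 (SE 0.60) and 0.029 (SE 0.59), and these SEs also carry the wide spread of Drd2 in the PFC. Drd5 differed by -0.091 to 0.14 over the 4 comparisons. Drd4, tested with no filter, was lower with psilocybin in the PFC at 3 h by 1.26 on the log2 scale (SE 0.57, unadjusted p = 0.0313, adjusted p = 0.663), with vehicle libraries from 0.061 to 1.07 CPM and psilocybin libraries from 0 to 0.435 CPM, which overlapped.

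The oxidases gave the tightest estimates. Over the 4 comparisons every 95% interval of Maoa and Maob lay between -0.351 and 0.375 on the log2 scale. Maob in the hypothalamus was 0.17 higher with psilocybin at 3 h (SE 0.10, unadjusted p = 0.1) and differed by -0.15 at 4 weeks (SE 0.099), and the difference between these effects was 0.32 (SE 0.14, unadjusted p = 0.0261, edgeR adjusted p = 0.904). Maoa in the PFC at 3 h differed by 0.13 (SE 0.085). The effect of psilocybin was also compared between times within a region and between regions within a time; none of the 8 members was called in these 4 comparisons, and 0% of all tested genes was called in each.

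**Figure D2:**
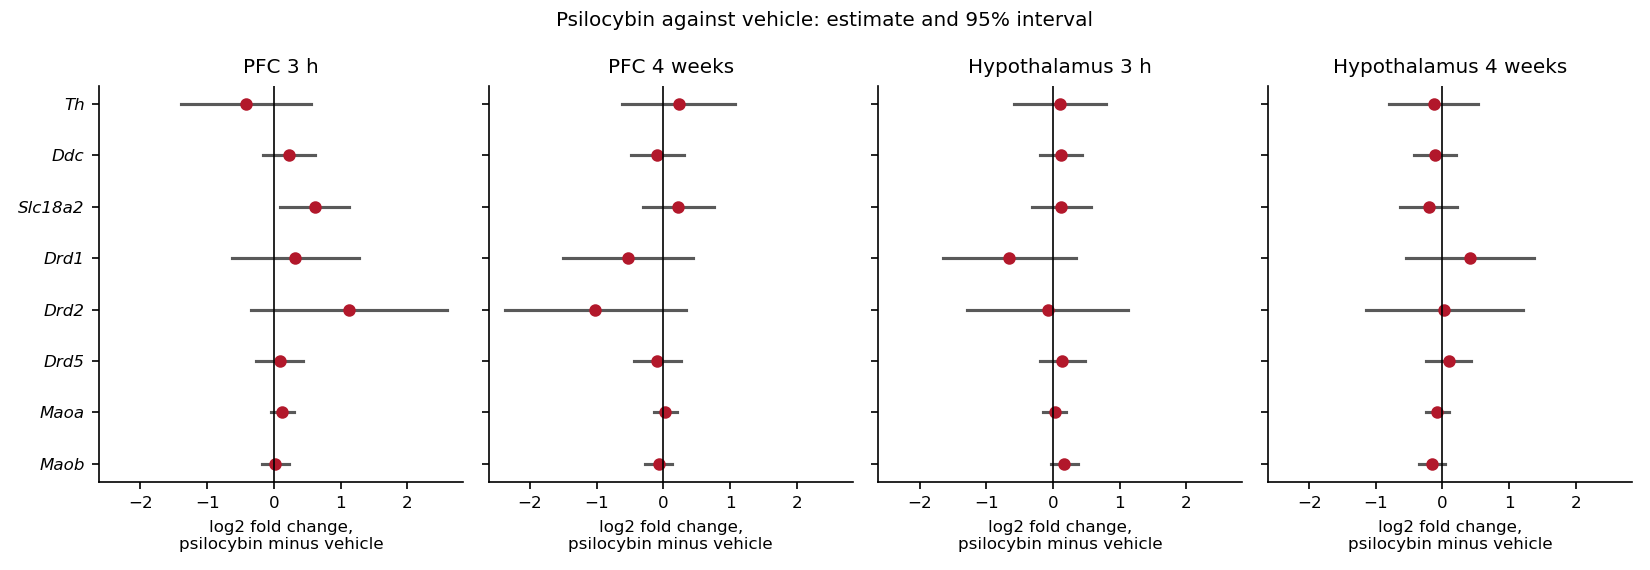
The log2 fold change of psilocybin against vehicle for the 8 tested genes in each region and time; points are estimates of edgeR's fit and lines are 95% intervals. The intervals are widest for Drd2 in the PFC (-0.336 to 2.59 at 3 h and -2.37 to 0.332 at 4 weeks) and narrowest for Maoa and Maob, and Slc18a2 in the PFC at 3 h is the member whose interval (0.0947 to 1.13) leaves out 0.

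**Figure D3:**
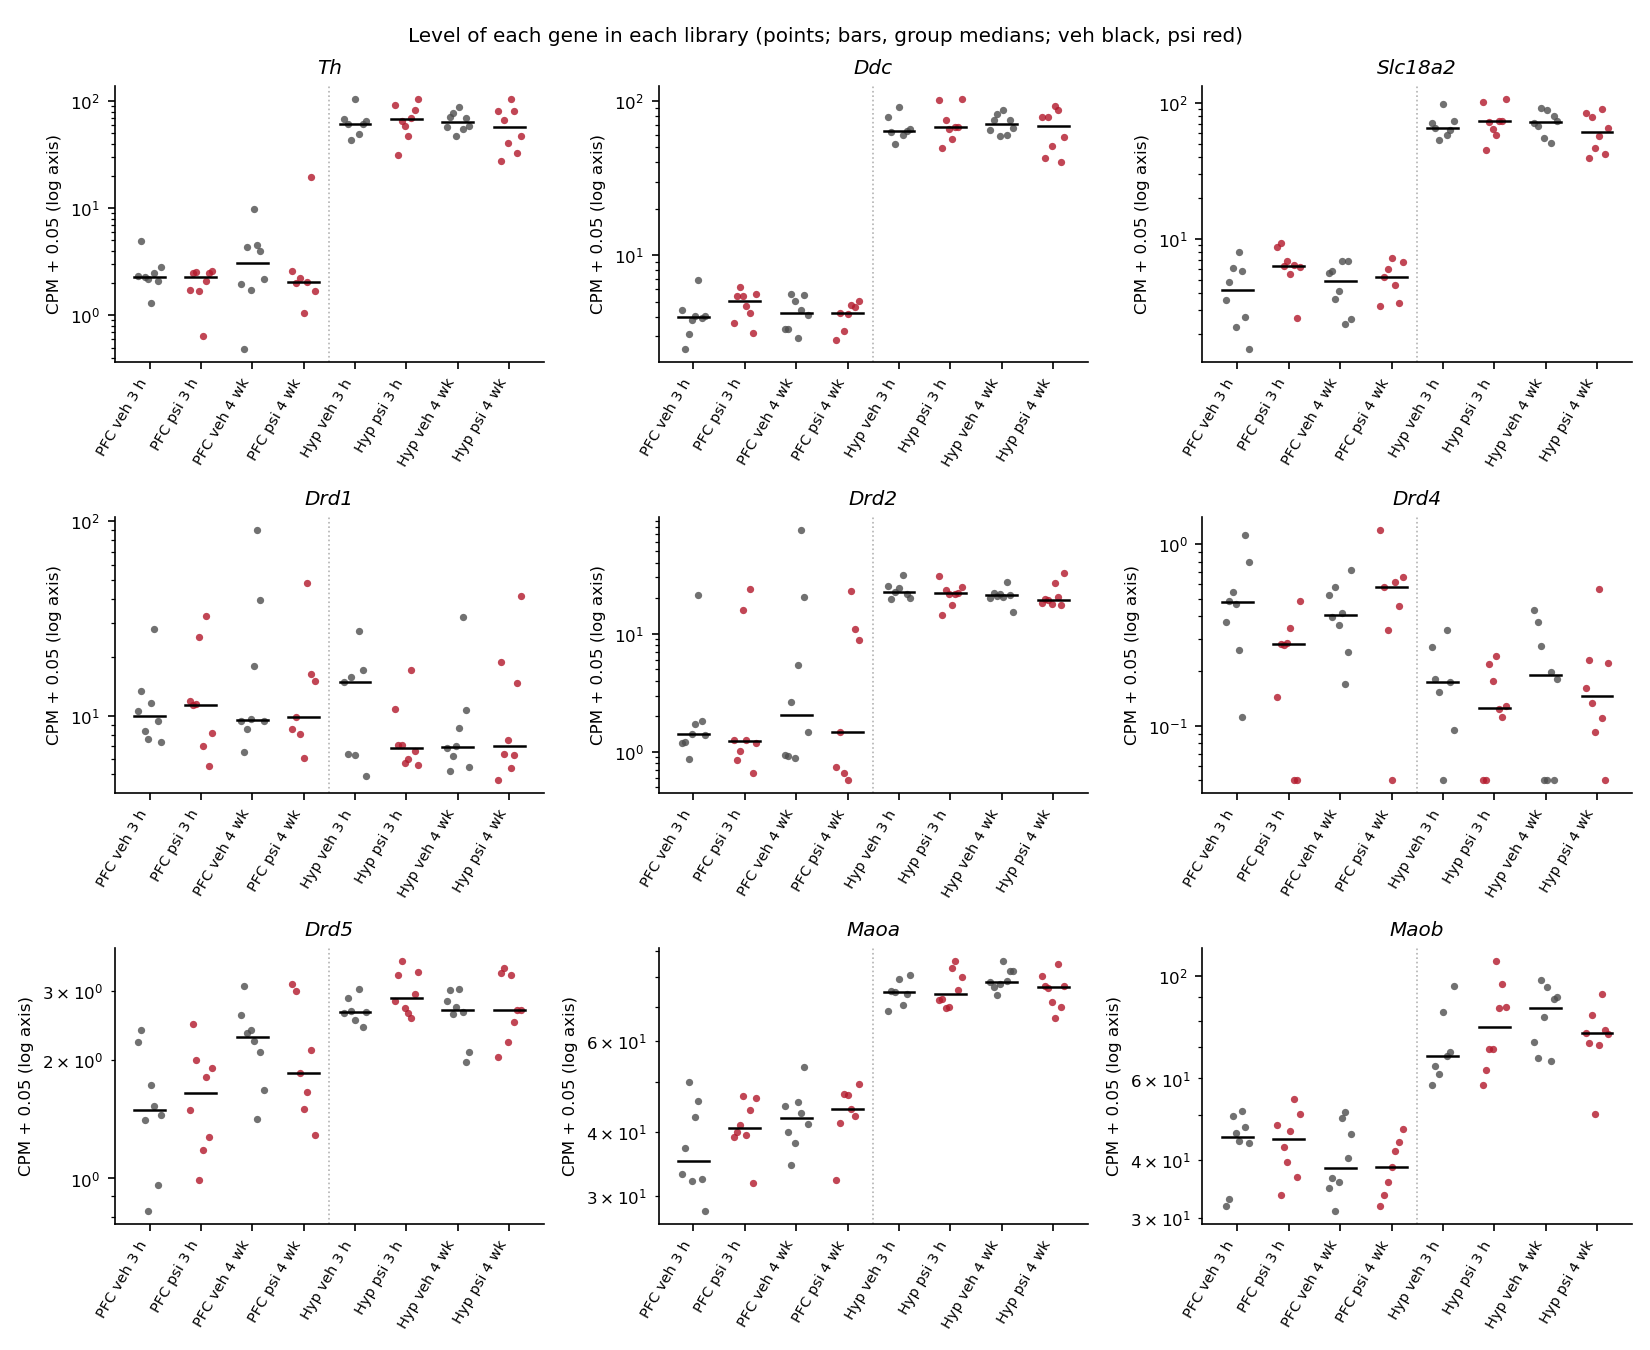
The level of each of the 9 genes in each of 62 libraries (CPM + 0.05, log axis), by region, time and treatment; points are libraries, bars are group medians, black is vehicle and red psilocybin. The regions separate Th, Ddc and Slc18a2 (medians of 64.7, 66.6 and 70.9 CPM in the hypothalamus and 2.17, 4.15 and 5.57 CPM in the PFC), whereas vehicle and psilocybin points overlap in every group pair.

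The 3 h and 4 week groups were compared within each region and treatment. The share of all tested genes called was 4.72% in PFC vehicle, 5.96% in PFC psilocybin, 0.685% in hypothalamus vehicle and 1.16% in hypothalamus psilocybin libraries, and none of the 8 members was called by edgeR in any of them. At an unadjusted p under 0.05, 3 members passed in PFC vehicle, 1 in PFC psilocybin, 1 in hypothalamus vehicle and 0 in hypothalamus psilocybin libraries, where 3419, 3875, 1535 and 3302 of all 18971 tested genes did. The member medians were -0.33, 0.14, -0.060 and 0.091 for PFC vehicle, PFC psilocybin, hypothalamus vehicle and hypothalamus psilocybin, against -0.0040, 0.0080, 0.0022 and -0.029 over all tested genes.

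Drd5, the less abundant D1-class receptor, came nearest to the threshold. In PFC vehicle mice it ranged from 0.776 to 2.33 CPM (median 1.44) at 3 h and from 1.37 to 3.03 CPM (median 2.24) at 4 weeks. The ranges overlapped, and 3 of 8 libraries at 3 h lay below the lowest at 4 weeks. The log2 difference was -0.51 (SE 0.17, edgeR adjusted p = 0.071), with -0.61 in pool C and -0.41 in pool D. It was called by DESeq2 (-0.51, adjusted p = 0.0464; 6.04% of genes called) and with the cage as a replicate block (-0.56, edgeR adjusted p = 0.0323; 4.19% called), and by edgeR with 61 libraries, without hypothalamus psilocybin 4 week replicate 5 (-0.51, adjusted p = 0.0472; 8.32% called). It was also called without vehicle 3 h replicate 1, 2 or 5 (adjusted p = 0.0413, 0.0419 and 0.0398). In PFC psilocybin mice the difference was -0.34 (SE 0.18, adjusted p = 0.274), and in the hypothalamus it was 0.050 (SE 0.17) and 0.099 (SE 0.16) for vehicle and psilocybin. The difference between the PFC and hypothalamus vehicle values was -0.56 (SE 0.24, edgeR adjusted p = 0.740), in a comparison in which 0.0369% of genes were called.

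Th in PFC psilocybin libraries differed by -1.13 between 3 h and 4 weeks (SE 0.47, unadjusted p = 0.0193, adjusted p = 0.147), and by 0.075 without psilocybin 4 week replicate 7. Drd2 in PFC vehicle libraries differed by -1.46 (SE 0.68, adjusted p = 0.236), and by -0.66 (SE 0.26, adjusted p = 0.192) without the libraries high in striatum markers. It ran from -2.48 (without vehicle 3 h replicate 6) to -0.33 (without vehicle 4 week replicate 6) on leaving out single libraries. Maoa in PFC vehicle libraries differed by -0.17 (SE 0.085, adjusted p = 0.261) and Maob in hypothalamus vehicle libraries by -0.24 (SE 0.10, adjusted p = 0.467). In hypothalamus psilocybin libraries the voom test called Th (0.69, adjusted p = 0.0204) and Ddc (0.44, adjusted p = 0.033), with 3.29% of genes called, where edgeR gave 0.20 (SE 0.33) and 0.15 (SE 0.15). In that test psilocybin 4 week replicate 5, which held 105.9 CPM of Th and 2681 CPM of hypothalamus markers, had a weight of 0.0276, the lowest of all libraries. Leaving out that library gave 0.35 for Th and 0.24 for Ddc by edgeR, the highest values over single libraries left out, and neither was called.

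The extraction pools (cages 1 to 4 against cages 5 to 8) were compared after the data were seen, because several members varied with them. The calls and p-values between pools are therefore given as a description. In the PFC 4 of 8 members were called between pools D and C, with 24.9% of all tested genes called, and in the hypothalamus 1 of 8 between pools B and A, with 17.4% called. In the hypothalamus 2 members were called under voom (34.8% of all genes called) and with only the groups compared (18.5%), and in the PFC 2 were called with no filter (8.01%) and with only the groups compared (27.8%). Maob was higher in pools D and B, by 0.29 in each region (SE 0.072 and 0.071, edgeR adjusted p = 0.00239 and 0.00532), with medians of 35.8 CPM in pool C, 45.8 in pool D, 69.4 in pool A and 85.4 in pool B. Drd5 was lower in pool D by 0.41 (SE 0.12, adjusted p = 0.0123), with medians of 2.29 CPM in pool C and 1.54 in pool D. Drd2 was higher in pool D by 2.61 (SE 0.54, adjusted p = 0.000391) and Drd1 by 0.94 (SE 0.36, adjusted p = 0.0462). The Drd1 call was lost on leaving out any 1 of 17 PFC libraries (adjusted p = 0.0501 to 0.116), under voom (0.0796), with no filter (0.0947), with all 64 libraries (0.0518) and with only the groups compared (0.0576). The difference itself was 0.69 to 0.96 without those single libraries, and 0.67, 0.93, 0.93 and 0.95 in the 4 settings. The Drd5 call was lost with no filter (-0.40, adjusted p = 0.0508) and with only the groups compared (-0.39, adjusted p = 0.0502). Without the libraries high in striatum markers no member was called between the PFC pools by edgeR, with 4.88% of all tested genes called: Drd2 gave 0.51 (adjusted p = 0.148), Drd1 -0.12 (adjusted p = 0.773), Drd5 -0.45 (adjusted p = 0.0629) and Maob 0.22 (adjusted p = 0.108).

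Drd1 and Drd2 in the PFC were high in the libraries high in striatum markers. Both receptors define the main classes of striatal projection neuron, and the list of 12 markers (among them Adora2a, Rgs9, Ppp1r1b, Pde10a, Tac1 and Penk) summed to a median of 325.4 CPM in the PFC and 343.8 CPM in the hypothalamus. In the 8 PFC libraries over 1.5 times that median Drd2 lay between 8.88 and 76.3 CPM, and in the other 23 between 0.527 and 5.43 CPM. All 4 PFC libraries of cage 6 were among the 8, with Drd2 at 21.3, 24.0, 76.3 and 22.8 CPM. The other 4 were psilocybin 3 h replicate 4, vehicle 4 week replicate 7 and psilocybin 4 week replicates 7 and 8, with 15.9, 20.3, 10.9 and 8.88 CPM. The marker sum ran without a clear gap across the threshold (ratios to the median of up to 1.32 below it and from 1.53 above it). Correlations of log2 CPM, with group and pool means removed, were computed on each side. These means were taken over all 31 libraries. A library high in markers thus shifted both measures of its group's other libraries the same way. The correlations therefore cannot show a relation within 1 side, and are given as a description with no test. Among the 23 libraries, the striatum marker sum and Drd2 gave r = 0.807 and rho = 0.844 (r = 0.762 without the 2 libraries farthest from the median). Among the 8, they gave r = 0.857 and rho = 0.905 (r = 0.797 without 2). Drd1 gave r = 0.726 among the 23 and 0.968 among the 8, with rho = 0.753 and 0.905. In CPM, the groups differed among the 23. From the library lowest to that highest in the sum, Drd1 went from 11.6 to 7.52 in vehicle 3 h and 11.3 to 5.45 in psilocybin 3 h. It went from 9.36 to 18.0 in vehicle 4 week and 7.99 to 9.80 in psilocybin 4 week libraries. Drd2 went from 1.68 to 1.37, 0.808 to 0.614, 0.889 to 5.43 and 0.615 to 1.43 in that order.

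In the hypothalamus the striatum marker sum went with Drd1 (r = 0.949, rho = 0.933, permutation p = 1e-05 for both, adjusted 0.000166 and 0.00018), with r = 0.931 in pool A, 0.954 in pool B and 0.919 without 2 libraries. With Drd2 it gave r = 0.579 and rho = 0.484 (adjusted permutation p = 0.00648 and 0.046), with 0.330 in pool A, 0.694 in pool B and 0.412 without 2 libraries. With Maob it went the other way (r = -0.639, rho = -0.706, adjusted permutation p = 0.00178 and 0.00029), with -0.485 and -0.772 in pools A and B. The p-values over libraries in this and the next paragraphs were adjusted over 216 relations, and 1e-05 is the smallest that 100000 permutations can give. The means removed were those of all 31 libraries of the region, also for values in 1 pool or without 2 libraries.

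**Figure D4:**
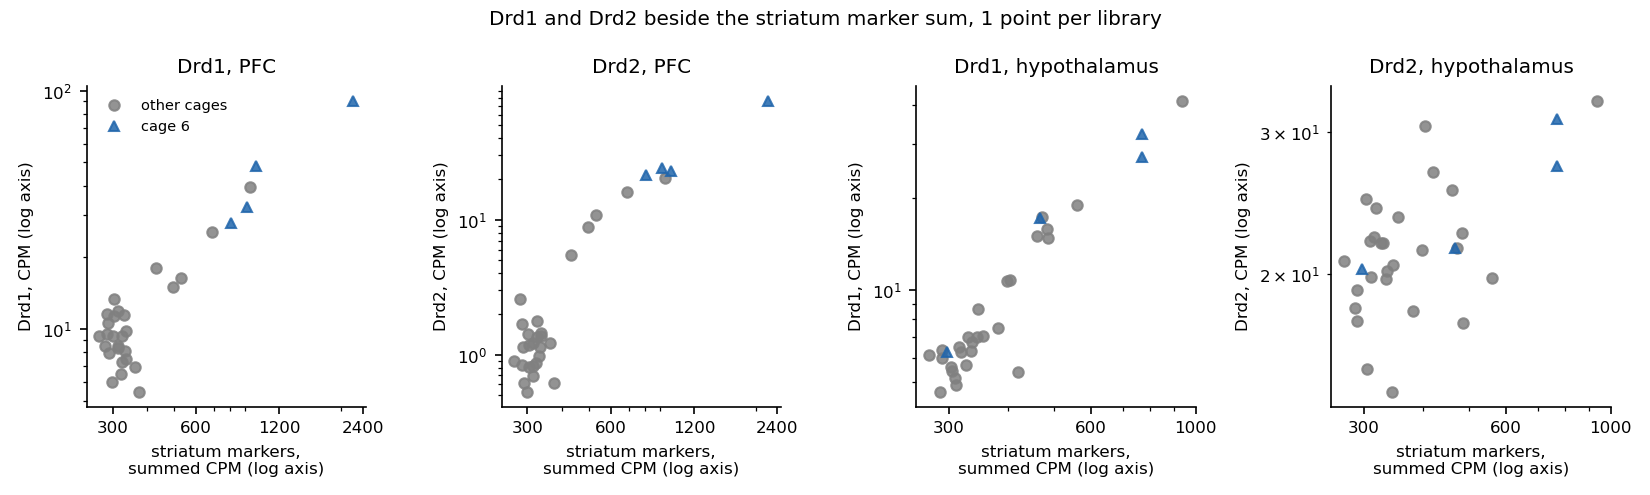
Drd1 and Drd2 (CPM, log axis) against the summed striatum markers (CPM, log axis) in the PFC and the hypothalamus, 1 point per library. In the PFC the 8 libraries to the right hold 8.88 to 76.3 CPM of Drd2, against at most 5.43 CPM in the other 23, and in the hypothalamus Drd1 rises with the markers from 4.62 to 41.5 CPM while Drd2 stays between 14.3 and 32.8 CPM.

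The synthesis and packaging genes varied together among hypothalamus libraries. After group and pool means were removed, Th and Ddc gave r = 0.959 and rho = 0.960 over 31 libraries (permutation p = 1e-05 for both, adjusted 0.000166 and 0.00018), with r = 0.967 in pool A, 0.953 in pool B and 0.956 without 2 libraries. Th and Slc18a2 gave r = 0.858 and rho = 0.823, with 0.965 in pool A and 0.745 in pool B, and Ddc and Slc18a2 r = 0.883 and rho = 0.865, with 0.960 and 0.816 (adjusted permutation p = 0.000166 and 0.00018 for both pairs; r = 0.927 and 0.860 without 2 libraries). The libraries lowest in Th, psilocybin 4 week replicates 2 and 7 (27.6 and 33.0 CPM) and psilocybin 3 h replicate 2 (31.4 CPM), were also the lowest in Ddc (42.9, 40.0 and 49.8 CPM).

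Midbrain dopamine neuron markers (Slc6a3, Pitx3, En1, Foxa1, Aldh1a1 and Ntsr1) moved with all 3. Their sum ran from 110.4 to 468.7 CPM in the hypothalamus and gave r = 0.885 with Th, 0.889 with Ddc and 0.894 with Slc18a2, with rho = 0.902, 0.914 and 0.855 (adjusted permutation p = 0.000166 and 0.00018 for each), and r = 0.856, 0.885 and 0.868 without 2 libraries. Within pools A and B these r were 0.951 and 0.816 for Th, 0.929 and 0.873 for Ddc, and 0.945 and 0.832 for Slc18a2. Of the list, Slc6a3, the plasma membrane dopamine transporter, ran from 10.3 to 206.7 CPM, Foxa1 from 1.36 to 5.97 CPM, En1 from 0.18 to 6.43 CPM and Pitx3 from 0 to 1.99 CPM. The aldehyde dehydrogenase Aldh1a1 held the most of the list's sum, with a mean of 159 CPM of 272, followed by Slc6a3 (88.7) and the neurotensin receptor Ntsr1 (18.4). The sum is thus mostly Aldh1a1 and Slc6a3, and which markers carry these correlations was not tested. Hypothalamic dopamine neurons share Slc6a3, and whether midbrain tissue lay in some dissections was not tested. Of 28 pairs of members, 6 had adjusted permutation p-values of r and rho under 0.05 in the hypothalamus, the 3 above and Th with Drd1 (r = -0.488, rho = -0.550, adjusted 0.0428 and 0.0153), Drd1 with Maob (r = -0.509, rho = -0.517, adjusted 0.0293 and 0.0287) and Maoa with Maob (r = 0.505, rho = 0.602, adjusted 0.0308 and 0.00486).

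**Figure D5:**
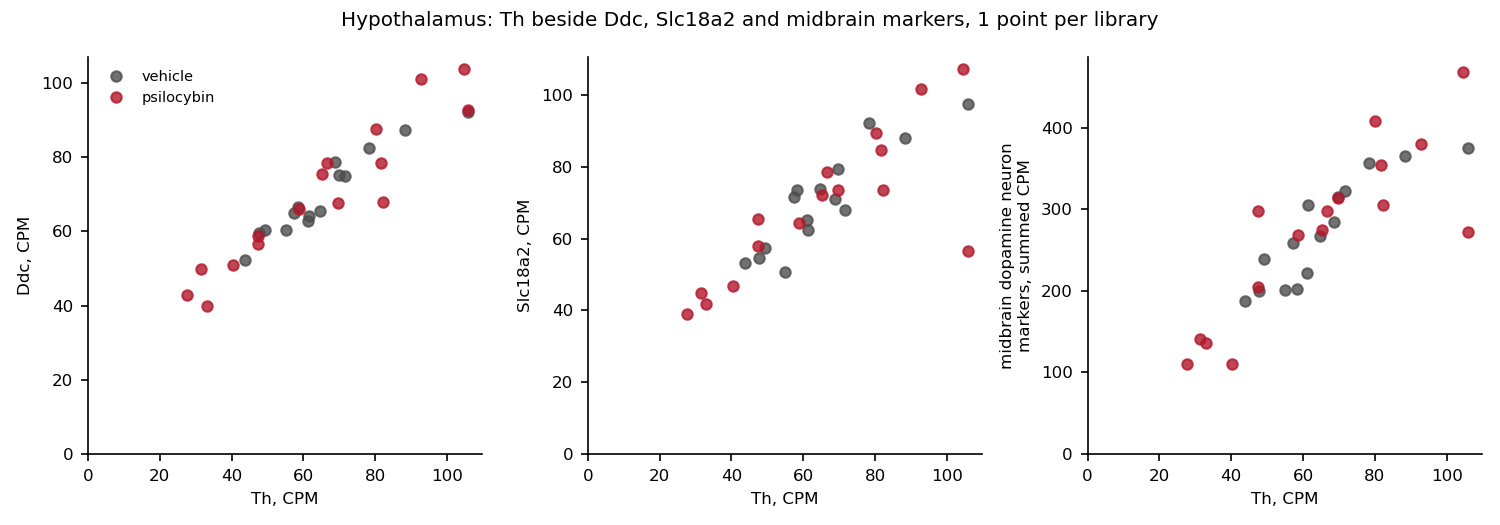
Ddc, Slc18a2 and the summed midbrain dopamine neuron markers (CPM) against Th (CPM) in 31 hypothalamus libraries, 1 point per library. Each rises with Th across its range of 27.6 to 105.9 CPM, with r of 0.959, 0.858 and 0.885 after group and pool means are removed from log2 CPM.

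In the PFC 2 of 28 pairs passed, Drd1 with Drd2 and Slc18a2 with Maoa (r = 0.791, rho = 0.797, adjusted permutation p = 0.000166 and 0.00018), the latter with r = 0.736 in pool C, 0.855 in pool D and 0.707 without 2 libraries. Th and Ddc, which moved together in the hypothalamus, gave r = -0.018 and rho = 0.0036 in the PFC (adjusted permutation p = 0.959 and 0.998). Slc18a2 varied with the thalamus markers (r = 0.721, rho = 0.699, adjusted 0.00031 and 0.0004), with 0.523 and 0.781 in pools C and D, and Maoa did as well (r = 0.618, rho = 0.630, adjusted 0.00252 and 0.00276), with 0.432 and 0.745. Of that sum's PFC mean of 137 CPM, Rora held 78.5, and Tcf7l2 and Lef1 held 5.18 and 3.45. Which of its genes carry these relations was not tested. Th varied with the ependymal and tanycyte markers (r = 0.655, rho = 0.602, adjusted permutation p = 0.00108 and 0.00486), with 0.795 and 0.587 in pools C and D and 0.583 without 2 libraries. Of that sum's PFC mean of 84.7 CPM, Crym held 62.7 and Col23a1 16.7, and Foxj1, Ccdc153, Tmem212 and Rax at most 4.18 each. Which of these genes carry the relation was not tested. With the endothelial markers Th gave r = -0.466 and rho = -0.564 (adjusted permutation p = 0.0547 and 0.00987). A list of olfactory bulb markers (Cdhr1, Doc2g, Eomes, Tbx21 and Gng4) was written after the Th values were seen, so its relation with Th is a description with no test: r was 0.805, and 0.641 without 2 libraries. The olfactory bulb holds dopamine neurons of its own. The PFC libraries highest in Th, psilocybin 4 week replicate 7 (19.4 CPM) and vehicle 4 week replicate 5 (9.81 CPM), were also the highest in these markers (237.8 and 104.1 CPM), and the other 29 held 40.1 to 76.1 CPM. Maob varied with the astrocyte markers (r = 0.747, rho = 0.701, adjusted permutation p = 0.000166 and 0.00029), with 0.873 in pool C and 0.607 in pool D, and with the microglia markers (r = 0.681, rho = 0.746, adjusted 0.00043 and 0.00029).

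The genes most like each member were ranked by Spearman's rho of log2 CPM over the 31 libraries of a region, with group and pool means removed, and are given as a description. In the hypothalamus Th was most like Ddc (0.960), Slc6a3 (0.914) and Chrna6 (0.907). Ddc was most like Th, Chrna6 (0.950) and Slc6a3 (0.926), and Slc18a2 like Gucy2c (0.902), Chrna6 (0.892) and Slc6a3 (0.871). Drd1 was there near to Arpp21 (0.964) and Gng7 (0.951), and Drd2 to Dtnb (0.789), Rasd2 (0.780) and Inf2 (0.751). In the PFC Drd2 was nearest to Adora2a and Rgs9 (0.960 each) and Ankk1 (0.940), the gene next to Drd2, and Drd1 to Rgs9 (0.921), Tac1 (0.919) and Ankk1 (0.881). Slc18a2 in the PFC was nearest to Mosmo (0.929), Scai (0.923) and Tob1 (0.917), Maoa to Pcdh11x (0.902), Tlk1 (0.893) and Hs6st2 (0.892), Maob to Il1rl1 (0.840), Tpmt (0.8286) and Etfa (0.799), and Drd5 to Gm17509 (0.810), Deptor (0.769) and Lrp8 (0.719). Th in the PFC was nearest to Tmem163 (0.689), Thsd7b (0.681) and Lingo4 (0.675), and Ddc to Myrf (0.646), Gm13544 (0.604) and Nkain1 (0.594). In the hypothalamus Drd5 was nearest to AC168050.2 (0.7004), Gp1bb (0.692) and Mterf2 (0.650), Maoa to Morf4l1 (0.784), Snx6 (0.771) and Ssr3 (0.767), and Maob to Igfbp5 (0.795), Lrig3 (0.756) and Nqo2 (0.715). Drd4 was not ranked, because its median count was under 10 in both regions.

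In the psilocybin comparisons edgeR called none of the 11 tested cofactor and catabolic enzymes, 6 monoamine transporters, 4 other synthesis genes, 17 dopamine receptor signalling genes or 13 transcription factors of dopamine neurons in any of the 4, at the background shares given above. Gch1, which makes the tetrahydrobiopterin that Th needs, had the smallest p of the enzymes in the PFC at 3 h (log2 difference 0.76, SE 0.36, adjusted p = 0.682). The genes with the smallest p of the other lists there were the transporter Slc22a3 (-0.32), the histamine methyltransferase Hnmt (0.12), the arrestin Arrb1 (-0.11) and Lmx1b (-0.97). In the PFC at 4 weeks they were Pcbd1 (-0.36), Slc29a4 (-0.23), Hdc (0.77), Adcy5 (-0.30) and Isl1 (-1.64), in the hypothalamus at 3 h Aldh1a1 (0.21), Slc22a2 (-1.20), Tph1 (1.503) and Ppp1r1b (-0.54), and in the hypothalamus at 4 weeks Gchfr (1.05), Tph1 (-3.44), Caly (0.36) and En2 (-0.36). Tph1, which makes serotonin outside the brain and in the pineal gland, was called in the hypothalamus at 4 weeks by DESeq2 (-3.83, adjusted p = 0.00587). Its hypothalamus median was 0.154 CPM and its highest library held 11.8 CPM, and edgeR's value ran from -3.80 to -0.55 on leaving out single libraries, the last without vehicle 4 week replicate 3. The list medians over the 4 comparisons lay between -0.18 and 0.17.

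Between 3 h and 4 weeks edgeR called 1 of 11 enzymes and 1 of 6 transporters in PFC psilocybin libraries, both higher at 3 h. These were Gch1 (1.24, SE 0.38, adjusted p = 0.0371) and Slc29a4, the plasma membrane monoamine transporter (0.53, SE 0.14, adjusted p = 0.013). In PFC vehicle libraries 1 of 17 signalling genes was higher at 3 h, the receptor kinase Grk2 (0.24, SE 0.069, adjusted p = 0.0269), and 2 of 13 transcription factors were lower, Otp (-2.86, adjusted p = 0.00608) and Isl1 (-3.17, adjusted p = 0.00649). These counts are read against the 5.96% and 4.72% of all tested genes called. The Gch1 call was lost with the cage as a replicate block (1.01, adjusted p = 0.119), under voom (0.48, adjusted p = 0.366), in 3 further settings (adjusted p = 0.106 to 0.229) and on leaving out any 1 of 8 libraries, with 0.58 as the lowest value (without psilocybin 3 h replicate 7). The Slc29a4 call was lost without the libraries high in striatum markers (0.61, adjusted p = 0.0588). The Grk2 call was lost with no filter, with all 64 libraries, with only the groups compared and without the libraries high in striatum markers (adjusted p = 0.163, 0.0687, 0.151 and 0.167), and on leaving out any 1 of 6 libraries, while its value in the 4 settings stayed at 0.24, 0.24, 0.23 and 0.21. Otp and Isl1 were scarce in the PFC (medians of 0.115 and 0.0754 CPM, each at 0 in 12 of 31 libraries), and neither was called by voom (adjusted p = 0.425 and 0.443). Nor was Otp called without vehicle 4 week replicate 3 (-1.06), or Isl1 without vehicle 4 week replicate 6 (-2.48). In the hypothalamus edgeR called no gene of the 5 lists, and DESeq2 called Tph1 in vehicle libraries (-3.16, adjusted p = 0.012), where edgeR gave 0.12 without vehicle 4 week replicate 3. The smallest p of the lists with no call fell on Gch1, Slc22a2 and Tph2 (0.64, 0.75 and 0.45) in PFC vehicle, on Hdc, Grk2 and En2 (-0.73, 0.22 and -0.95) in PFC psilocybin (where Grk2 was called by voom, at 0.19 with adjusted p = 0.00462, and by edgeR with 61 libraries, at 0.22 with adjusted p = 0.0256), on Qdpr, Tph1, Grk2 and Dlx1 (0.091, -2.67, 0.097 and 0.24) in hypothalamus vehicle, and on Akr1a1, Slc22a2, Tph1 and Arrb2 (-0.17, -1.48, 2.28 and -0.27) in hypothalamus psilocybin libraries.

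Between regions, where 76.2% of all tested genes were called and 36.5% were called as higher in the hypothalamus, 7 of the 11 enzymes were higher in the hypothalamus and 1 lower, with the smallest p-values for Pcbd1 (3.00), Aldh1a1 (1.21) and Qdpr (0.82). Of the 6 transporters 4 were higher and 1 lower, among them Slc6a3 (7.14), Slc29a4 (1.80) and Slc22a2 (-3.68). Of the 4 genes for other amines, Hdc, which makes histamine in hypothalamic neurons, was higher (5.60) and Tph2 lower (-1.20). The signalling list was split, with 6 of 17 higher, such as Gnas (1.79), and 9 lower, such as Gnao1 (-0.51) and Arrb1 (-0.60), at a median of -0.17. Of 13 transcription factors 10 were higher and 2 lower, with Otp (7.82), Foxa1 (7.71) and Lmx1a (6.62) at the smallest p-values and a median of 4.30.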

How the data were processed

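RNA from 32 mice (64 libraries) was sequenced as paired ends from a stranded mRNA kit, and the authors aligned reads with STAR 2.7.2b to GRCm38 and counted pairs per GENCODE gene with featureCounts 1.6.2. Their demultiplexing used bcl2fastq 2.20.0. The deposited table holds raw whole-number counts per gene, with no normalization; pairs were kept only if both ends fell on one strand, and whether that strand had to be the gene's is not given in the sources used here. Groups came from the sample labels. Libraries under 1000000 counts were left out.

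Counts were tested with edgeR 4.0.16 in R 4.3.3 (quasi-likelihood, robust, TMM, filterByExpr with a minimum count of 10), with group and centred extraction pool as terms and p-values adjusted (Benjamini-Hochberg) over 18971 genes. CPM use TMM-scaled totals of the deposited counts, and CPM per kb divide by exon length. The reported depths limit precision for Drd4 most. The study used a voom test with sample weights and animal correlation, and left out 1 more library for its wound healing and immune genes, which the sources used here do not name. That library was therefore not removed, and voom was run here on 62 libraries (limma 3.58.1) as an alternative. The summed level of 8 wound and immune markers was highest in hypothalamus vehicle 4 week replicate 6 (207 CPM, group median 68.5). Leaving it out changed 1 call of a member (Drd1 between regions, then called). Other alternatives were DESeq2 1.42.0, RLE scaling, no filter, no pool term, all 64 libraries, only the groups compared, cage or animal blocks and leaving out each library.

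Named were all 9 members, and of each other list the called genes (at most 3, by smallest p) or otherwise the gene with the smallest p, and the 3 genes most like each member; a few genes that this rule names are not reported here. The members and lists were chosen with earlier results of these data known. The comparison of pools, the olfactory bulb list and the fit without libraries high in striatum markers were added after the data were seen.

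Replicate numbers are cage numbers in the labels, and each cage number occurs once in each group, so the numbers pair samples by cage. With group means removed, libraries of 1 cage correlated at a mean r of 0.0806 in the PFC and 0.0723 in the hypothalamus, and at -0.0415 and -0.0236 with pool means also removed, near the values between cages (-0.0294 and -0.0274). No pair of libraries in a group (210 pairs) agreed within sampling noise, with the lowest chi-square per degree of freedom at 3.85.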

Additional observations from a re-analysis of the deposited data

Results flagged for a closer look

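In 15 of 72 gene and group combinations the highest or lowest library stood apart from the rest of its group by Dixon's test. The nominal rate is about 1 in 20 for independent, normally distributed values. The test was run on CPM without logs and the combinations share libraries, so that rate may not hold here. Of the 15, 8 concerned Drd1 or Drd2. In the PFC the highest Drd1 values were 27.8 CPM (vehicle 3 h replicate 6), 90.8 CPM (vehicle 4 week replicate 6) and 48.5 CPM (psilocybin 4 week replicate 6), and the highest Drd2 values were 21.3 and 76.3 CPM in the first 2 of these libraries. All 3 came from cage 6 and were high in striatum markers. In the hypothalamus the highest Drd1 values were 17.1 CPM (psilocybin 3 h replicate 6), 32.3 CPM (vehicle 4 week replicate 6) and 41.5 CPM (psilocybin 4 week replicate 8).

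Th stood apart in 5 groups. In the PFC it was highest at 4.89 CPM (vehicle 3 h replicate 2), 9.81 CPM (vehicle 4 week replicate 5) and 19.4 CPM (psilocybin 4 week replicate 7), and lowest at 0.585 CPM (psilocybin 3 h replicate 5). In the hypothalamus it was highest at 105.8 CPM (vehicle 3 h replicate 5), where the next library of the group held 68.7 CPM.

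Ddc was highest at 6.81 CPM in PFC vehicle 3 h replicate 6, also of cage 6. Drd4 was highest at 0.516 CPM in hypothalamus psilocybin 4 week replicate 5, the library with the lowest weight in the voom test.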

How the results depend on the processing

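Of the members' log2 differences recomputed under the alternatives other than single pools and single libraries left out, 394 kept their direction and side of the threshold. Another 9 turned sign, 6 gained a call and 9 lost a call with the sign kept. Among those that turned sign, Drd1 between PFC pools without libraries high in striatum markers also lost its call. The count of members called in PFC vehicle libraries between 3 h and 4 weeks was 0 and became 1 (Drd5) under DESeq2, with the cage as a replicate block and with 61 libraries (without hypothalamus psilocybin 4 week replicate 5; 8.32% of all genes called), and ran from 0 to 1 on leaving out single libraries. In hypothalamus psilocybin libraries it became 2 under voom. Between hypothalamus pools it went from 1 to 2 under voom (34.8% of all genes called) and with only the groups compared (18.5%), and between PFC pools from 4 to 2 with no filter (8.01%), to 2 with only the groups compared (27.8%) and to 0 without libraries high in striatum markers (4.88%). The replicate block by cage or animal changed no other call of a member than Drd5 and, between regions, Drd1, and ended the Gch1 call in PFC psilocybin libraries between times (1.01). Drd1 between regions was also called without hypothalamus psilocybin 3 h replicate 6, psilocybin 4 week replicate 2 or 8, vehicle 3 h or 4 week replicate 6, or PFC psilocybin 3 h replicate 5 or 7, psilocybin 4 week replicate 5 or vehicle 4 week replicate 8. The cause of these changes was not tested.

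For psilocybin against vehicle in the PFC at 4 weeks Th turned to -0.42 under voom, -0.077 with the cage block, -0.87 without libraries high in striatum markers and -0.14 in pool C, and ran from -0.98 to 0.58 on leaving out single libraries. Drd1 was 0.039 in pool C and ran from -0.98 to 0.083, and Drd2 from -1.53 to 0.18. At 3 h Drd1 turned to -0.054 (voom), -0.080 (without libraries high in striatum markers) and -0.084 (pool D), Drd2 to -0.48, -0.39 and -0.0019 under the same 3 settings and from -0.11 to 2.02 on leaving out single libraries, and Ddc to -0.084 in pool D. Without libraries high in striatum markers Th in PFC psilocybin libraries between times turned to 0.029 (-1.32 to 0.075 on leaving out single libraries) and Drd1 between PFC pools to -0.12. In the hypothalamus at 4 weeks Drd1 ran from -0.066 to 0.84. Of the other genes, Hdc turned to -0.022 (PFC at 4 weeks) and 0.13 (PFC psilocybin between times) without libraries high in striatum markers, Gchfr to -0.053 under voom and Caly to -0.00036 under voom and -0.0025 with 61 libraries (-0.0025 to 0.43 on leaving out single libraries), both in the hypothalamus at 4 weeks. Between times in the hypothalamus, Akr1a1 turned to 0.024 (psilocybin) under voom, and Tph1 in vehicle ran from -3.05 to 0.12. Depth limits Drd4 most, at a median of 7 reads a PFC library and 2 a hypothalamus library.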
